A study of Mus musculus with 4 samples.

Results

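A set of 46 cell cycle genes was followed in sorted tdTomato+ cells made from mouse embryonic stem cells. The genes were chosen by name from the 34968 gene symbols that all 4 libraries share. They comprise 5 genes of the G1/S transition, 15 of S phase, 23 of G2 and mitosis, and 3 chromatin genes of dividing cells, and all 46 passed the filter on low values that left 12975 genes for testing. The question was how much of a cycling cell's transcript set was present in cells sorted for tdTomato, a reporter that the labels describe as marking postmitotic neurons, and whether it differed between the N/D/S and N/D lines or between replicate 1 and replicate 2.

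Both lines derive from 1 embryonic stem cell line, which was isolated from a male preimplantation embryo of Dlx6a-Cre; Ai9 mice on a C57/BL6 background. In these cells Cre expressed from Dlx6a turns on the red protein tdTomato. Both lines carry a Nestin-Nkx2-1-IRES-tTA2S construct, in which sequences of the neural progenitor gene Nestin drive Nkx2-1 together with the tTA2S transactivator, and a second construct that tTA2S switches on. In N/D that construct is TRE-Dlx2, and in the N/D/S pair it is TRE-Dlx2-St18, so the lines differ by design in added St18. Each line went through drug selection and clonal picking, so a difference between lines may also be a difference between clones. Cells were differentiated for 12 days as embryoid bodies, and tdTomato+ cells were sorted for RNA, with 2 libraries per line. No gate against cycling cells is given in the sources used here. No source used here states whether the replicates were separate cultures, so the p-values measure the spread between these libraries, which may be technical.

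A dividing cell copies its DNA in S phase and separates the copies in mitosis, and each step needs its own set of proteins. Transcription of these genes follows the cycle. E2F factors switch on the replication genes at the G1/S boundary, and the MuvB proteins, joined by B-Myb and FoxM1, raise the mitotic genes in G2. In a cell that has left the cycle the same MuvB core joins p130 and E2F4 in the DREAM complex, which keeps both groups low. Neurons leave the cycle for good, whereas the radial glia and intermediate progenitors that produce them divide.

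Promoters of the 2 main groups differ in some of the short sequence elements known from this regulation, and 3 promoters are shown as examples of genes with such elements. Each sequence is the RefSeq promoter in build GRCm38.p6, from 250 bases before the start site to 50 bases after it, written 5′ to 3′ on the strand of the gene. Ccnb1 (cyclin B1, the partner of Cdk1 at mitotic entry) lies on the minus strand at chr13:100786437-100786736. Cdc20 (the activator of the ubiquitin ligase that ends metaphase) lies on the minus strand at chr4:118437294-118437593. Mcm6 (a subunit of the replicative helicase) lies on the minus strand at chr1:128359656-128359955. Capitals mark the cell cycle homology region TTTGAA (CHR) and the CCAAT box in Ccnb1 and Cdc20, and E2F elements in Mcm6. The CCAAT box is frequent in both groups, and the Mcm6 promoter holds it too, but it is not marked there.
Ccnb1: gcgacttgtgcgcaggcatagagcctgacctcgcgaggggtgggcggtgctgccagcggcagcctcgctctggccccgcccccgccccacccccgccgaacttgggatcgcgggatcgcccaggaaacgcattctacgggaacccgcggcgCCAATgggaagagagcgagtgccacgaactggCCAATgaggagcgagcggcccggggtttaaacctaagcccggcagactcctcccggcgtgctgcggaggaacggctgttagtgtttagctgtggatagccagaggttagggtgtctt
Cdc20: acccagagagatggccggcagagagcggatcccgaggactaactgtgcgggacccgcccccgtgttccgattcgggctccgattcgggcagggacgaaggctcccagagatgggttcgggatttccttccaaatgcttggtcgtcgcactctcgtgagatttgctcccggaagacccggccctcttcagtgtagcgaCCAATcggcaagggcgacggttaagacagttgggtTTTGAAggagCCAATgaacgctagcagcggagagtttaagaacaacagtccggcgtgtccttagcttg
Mcm6: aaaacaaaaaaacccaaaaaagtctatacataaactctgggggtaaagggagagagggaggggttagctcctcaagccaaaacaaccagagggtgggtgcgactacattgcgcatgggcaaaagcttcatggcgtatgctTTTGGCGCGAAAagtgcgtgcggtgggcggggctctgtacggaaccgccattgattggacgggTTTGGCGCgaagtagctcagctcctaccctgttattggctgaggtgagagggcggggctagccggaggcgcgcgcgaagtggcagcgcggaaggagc
The Ccnb1 window held 2 CCAAT boxes, at -99 and -67 relative to the start site, and no match to TTTGAA, the only form of the CHR searched. The Cdc20 window held CCAAT boxes at -53 and -8 and a CHR at -18. The Mcm6 window held E2F elements at -110, -106 and -47, of which the pair at -110 and -106 overlap on opposite strands.

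RefSeq promoters were matched for 36 of the 46 genes, and Cdc25c, Ccna2, Ccne2, Mcm4, Foxm1, Ccnd2, Gins2, Aurkb, Ccnd1 and Tpx2 had no entry. Both strands were searched. The set's counts are of genes with a match in any of their promoters, whereas the shares of all are counted per promoter. The CHR (TTTGAA) was found in 13 of 18 G2/M promoters, 2 of 13 S phase promoters and all 3 chromatin promoters (Mki67, Top2a and Hmgb2), against 17.9% of all 32851 promoters of the same length. The CCAAT box was found in 14 of 18 G2/M and 9 of 13 S phase promoters, against 37.4% of all promoters. A CHR and a CCAAT box occurred together in 11 of 18 G2/M promoters, against 6.95% of all. An E2F element (TTTCCCGC, TTTGGCGC, TTTCGCGC or TTTGCCGC) was found in 6 of 13 S phase promoters, namely Cdc6, Cdt1, Mcm3, Mcm5, Mcm6 and Mcm7, in 1 of 18 G2/M promoters, that of Cdk1, and in 2.26% of all. These are matches of letters in a fixed window and not measured binding sites.

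The values are TPM, estimated shares of a library's transcripts after correction for transcript length, scaled to about the same total in each library. No read counts were used, so the depth behind a value is unknown. Where a pair of values is given for a line, replicate 1 comes before replicate 2. The labels were checked on the engineered genes. St18 stood at 44.4 and 15.9 TPM in the N/D/S pair and at 28.5 and 26.6 TPM in the N/D pair, so the level of St18 transcript did not separate the lines. Nkx2-1 was present in all 4 libraries (39.6 and 18.3 TPM in the N/D/S pair, 16.5 and 48.6 TPM in the N/D pair), as was Dlx2 (258.6 and 147.5 TPM, and 71.1 and 187.8 TPM). Since the transcript that defines N/D/S did not separate it from N/D, N/D/S and N/D below mean the libraries labelled so. Whether transcripts of the added constructs are counted in these values is not given in the sources used here, and the labels were taken as given. The sorted cells carried neuronal transcripts, with all 10 neuronal markers above 0 in every library. Tubb3, a neuronal tubulin, stood at 2774 and 2455 TPM in the N/D/S pair and at 2048 and 1509 TPM in the N/D pair.

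N/D replicate 1 stood apart from the other libraries. It had 13426 genes above 0, against 17118 to 20750 in the others, and it listed 3389 of the 12975 tested genes at 0 TPM (26.1%), against 39 to 285 in the others. A total of 6139 genes reached 10 TPM or more in every other library, and 613 of them were at 0 in N/D replicate 1. None of 18 genes that every cell uses was at 0, although Polr2a, a subunit of RNA polymerase II, stood at 0.0024 TPM there against 4.98 to 17.4 TPM elsewhere. The main fits and counts below that include N/D replicate 1 are followed by values without it.

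Cell cycle transcripts were present in all 4 libraries, but at very different levels. Summed over the 46 genes they reached 917 TPM in N/D/S replicate 1, 972 TPM in N/D/S replicate 2, 457 TPM in N/D replicate 1 and 1621 TPM in N/D replicate 2. The sums amounted to 0.0917%, 0.0972%, 0.0457% and 0.162% of all TPM. Both N/D/S libraries thus lay between the 2 N/D libraries, and the groups overlapped. N/D replicate 2 exceeded N/D/S replicate 1 by 1.77-fold and N/D/S replicate 2 by 1.67-fold. In bulk RNA, fewer cycling cells and less of these transcripts per cell cannot be told apart.

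**Figure D1:**
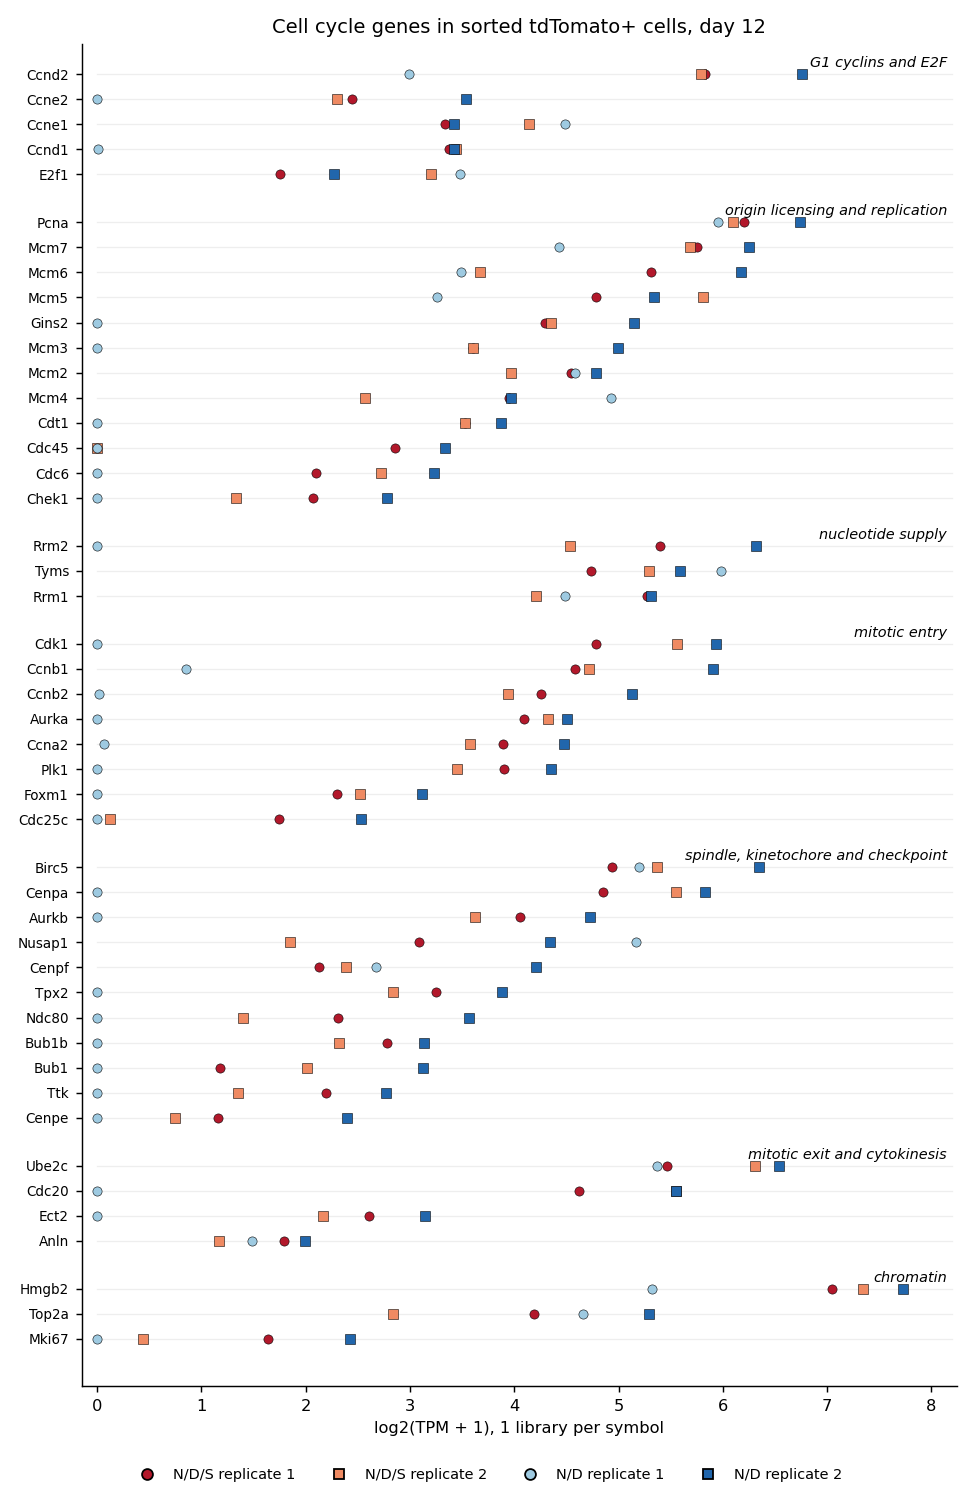
Level of each of the 46 genes in each library as log2(TPM + 1), grouped by role and ordered within a role by the level in N/D replicate 2. Each symbol is 1 library, symbols at the same value cover each other, and the 24 light blue symbols at 0 are genes listed at 0 TPM in N/D replicate 1, while dark blue symbols (N/D replicate 2) are furthest right for 39 genes.

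The G1 cyclins and E2f1 did not share 1 profile. Ccnd2, a D-type cyclin that activates Cdk4 and Cdk6 in G1, stood at 55.7 and 54.3 TPM in the N/D/S pair and at 6.97 and 107.5 TPM in the N/D pair. Ccnd1, the other D-type cyclin of the set, stood at 9.37 and 9.89 TPM in the N/D/S pair, 0.0088 TPM in N/D replicate 1 and 9.69 TPM in N/D replicate 2. Apart from N/D replicate 1, the Ccnd1 values were close to each other.

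The E-type cyclins activate Cdk2 at the start of S phase, and the pair differed from each other. Ccne1 was highest in N/D replicate 1 (9.10 and 16.7 TPM in the N/D/S pair, 21.4 and 9.70 TPM in the N/D pair). Ccne2 was listed at 0 in the same library (4.44 and 3.92 TPM in the N/D/S pair, 0 and 10.6 TPM in the N/D pair). E2f1, a transcription factor of S phase genes, was also highest in N/D replicate 1, at 2.36 and 8.18 TPM in the N/D/S pair and 10.1 and 3.82 TPM in the N/D pair.

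Origin licensing and replication genes held the largest share of the summed level. Pcna, the sliding clamp of the replication polymerases, stood at 72.5 and 67.5 TPM in the N/D/S pair and at 61.0 and 106.1 TPM in the N/D pair. Mcm2, a subunit of the Mcm2-7 helicase, stood at 22.3 and 14.7 TPM in the N/D/S pair and at 23.0 and 26.5 TPM in the N/D pair, so that its groups did not overlap but came close to each other. The 6 helicase subunits peaked in different libraries. Mcm3 and Mcm6 were highest in N/D replicate 2 (30.9 and 71.0 TPM), Mcm4 in N/D replicate 1 (29.5 TPM) and Mcm5 in N/D/S replicate 2 (55.2 TPM).

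Mcm3 was listed at 0 in N/D replicate 1 and stood at 11.1 and 11.2 TPM in the N/D/S pair. The loading factors Cdc6 and Cdt1, the helicase cofactors Cdc45 and Gins2 and the checkpoint kinase Chek1 were likewise at 0 in N/D replicate 1, and Cdc45 was at 0 also in N/D/S replicate 2. Where they were above 0, these 5 genes ranged from 1.51 to 34.5 TPM. Mcm7, another subunit of the helicase, stood at 53.0 and 50.4 TPM in the N/D/S pair and at 20.6 and 75.2 TPM in the N/D pair.

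Genes of nucleotide supply gave a mixed picture. Rrm2, the S phase subunit of ribonucleotide reductase, stood at 41.0 and 22.1 TPM in the N/D/S pair and at 0 and 78.8 TPM in the N/D pair. Its partner Rrm1 stood at 37.8 and 17.5 TPM in the N/D/S pair and at 21.4 and 38.7 TPM in the N/D pair. Tyms, which makes thymidylate for DNA synthesis, was lower in both N/D/S libraries (25.6 and 38.1 TPM) than in both N/D libraries (62.0 and 47.0 TPM).

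Of the 7 roles, mitotic entry differed by the largest ratio of summed TPM between the 2 N/D libraries. Summed over the 8 genes they reached 118 and 131 TPM in the N/D/S pair, 0.856 TPM in N/D replicate 1 and 228 TPM in N/D replicate 2. Cdk1, the kinase that drives mitosis, stood at 26.6 and 46.3 TPM in the N/D/S pair and at 0 and 60.2 TPM in the N/D pair. Ccnb1, its cyclin partner, stood at 22.9 and 25.3 TPM in the N/D/S pair and at 0.80 and 59.0 TPM in the N/D pair. Ccna2, the cyclin of S phase and G2, stood at 13.8 and 10.9 TPM in the N/D/S pair and at 0.0446 and 21.3 TPM in the N/D pair.

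The remaining mitotic entry genes had the same order at the extremes. Ccnb2, Cdc25c, Foxm1, Plk1 and Aurka were all at or below 0.0117 TPM in N/D replicate 1 and highest in N/D replicate 2, where they ranged from 4.77 TPM (Cdc25c, the phosphatase that activates Cdk1) to 33.9 TPM (Ccnb2, a second B-type cyclin). Cdc25c was also close to 0 in N/D/S replicate 2, at 0.0864 TPM.

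Among the 11 spindle, kinetochore and checkpoint genes, 8 were at 0 in N/D replicate 1, namely the checkpoint genes Bub1, Bub1b and Ttk, the kinetochore genes Ndc80 and Cenpe, the centromeric histone Cenpa, the spindle factor Tpx2 and the kinase Aurkb. The other members, Birc5, Cenpf and Nusap1, were not. Birc5, which works with Aurkb in the chromosomal passenger complex, stood at 29.6 and 40.3 TPM in the N/D/S pair and at 35.7 and 80.1 TPM in the N/D pair. Nusap1, a microtubule-binding spindle protein, stood at 7.5 and 2.61 TPM in the N/D/S pair and at 34.9 and 19.3 TPM in the N/D pair, with no overlap between the groups. Cenpf, a large kinetochore protein, did not overlap either, at 3.38 and 4.22 TPM in the N/D/S pair against 5.36 and 17.5 TPM in the N/D pair.

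Summed over the 4 genes of mitotic exit and cytokinesis, N/D/S replicate 2 came closer to N/D replicate 2 than in the other roles, with 129 and 149 TPM. The sums were 74.4 TPM in N/D/S replicate 1 and 42.0 TPM in the remaining library. Cdc20 stood at 23.7 and 45.8 TPM in the N/D/S pair and at 0 and 45.95 TPM in the N/D pair. Ube2c, the ubiquitin-conjugating enzyme of the same ligase, stood at 43.2 and 78.5 TPM in the N/D/S pair and at 40.2 and 92.2 TPM in the N/D pair. Ect2 and Anln, which act in cytokinesis, did not exceed 7.86 TPM in any library.

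The chromatin genes differed strongly in level. Hmgb2, a chromatin protein abundant in dividing cells, was the highest of the 46 genes in every library but N/D replicate 1, at 131 and 162 TPM in the N/D/S pair and at 39.0 and 211.7 TPM in the N/D pair. Top2a, the topoisomerase that untangles replicated DNA, stood at 17.3 and 6.17 TPM in the N/D/S pair and at 24.3 and 38.3 TPM in the N/D pair, with no overlap. Mki67, the source of the Ki-67 proliferation antigen, was low in every library, at 2.11 and 0.353 TPM in the N/D/S pair and at 0 and 4.37 TPM in the N/D pair.

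**Figure D2:**
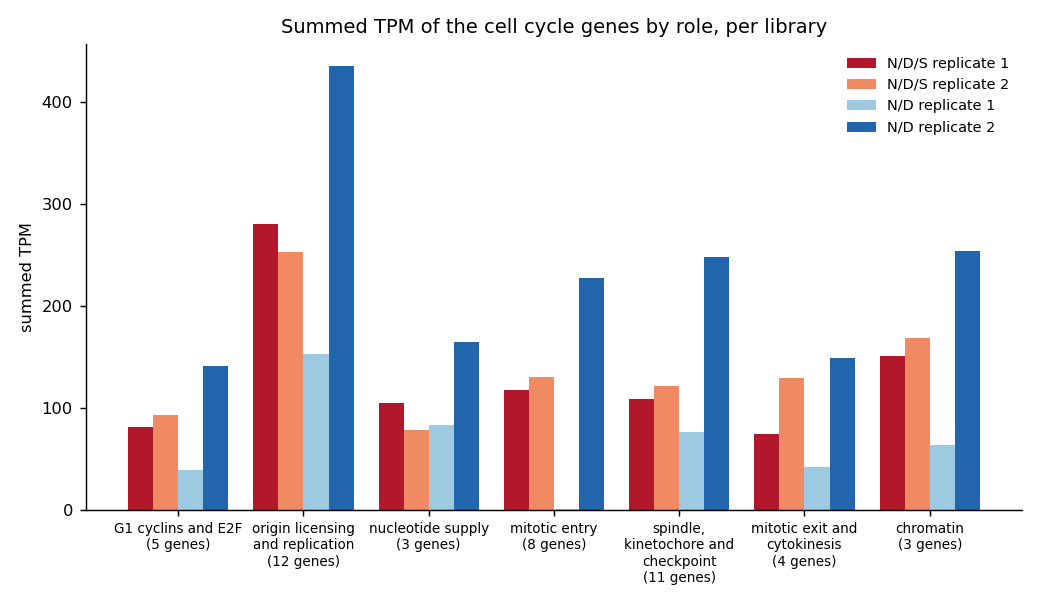
Summed TPM of the cell cycle genes in each role, with 1 bar per library. N/D replicate 2 has the tallest bar in all 7 roles, and the bar of N/D replicate 1 is too short to see for the mitotic entry genes (0.856 TPM).

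For the comparison of N/D/S with N/D, limma on log2(TPM + 1) called 0 of 12975 genes at an adjusted p of 0.05 (0%), and 0 of the 46. At an unadjusted p of 0.05, 8 genes passed, 3 higher and 5 lower, with none of the 46 among them. Of the 46 genes, 28 had a fold change above 0 and 18 below it, where 38.6% of all genes tested were below 0. The median log2 fold change was 0.49, against 0.26 over all genes tested. With 2 libraries per line, an exact permutation test cannot give a two-sided p below 0.333. The limma values of single genes were wide. Cdk1 had a log2 fold change of 2.21 (SE 1.86), Cdc20 of 2.31 (SE 1.78), Rrm2 of 1.80 (SE 1.95), Ccnd1 of 1.69 (SE 1.32), Ccna2 of 1.46 (SE 1.52), Ccnb1 of 1.27 (SE 1.65) and Ccnd2 of 0.93 (SE 1.39). Those of Mki67 (-0.18, SE 1.20), Pcna (-0.20, SE 0.98), Ccne1 (-0.21, SE 1.02), E2f1 (-0.40, SE 1.08), Mcm2 (-0.43, SE 0.97) and Top2a (-1.46, SE 1.03) were below 0. The lowest p among the 46 was that of Nusap1 (log2 fold change -2.28, SE 1.03, unadjusted p = 0.0626), and the adjusted p was 1 for every gene named here.

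The direction of the whole set turned on which N/D library was used. Without N/D replicate 1, 44 of the 46 genes had a fold change below 0, where 71% of all genes did, and the median was -0.79, against -0.29 over all genes, and limma called 0 genes. Without N/D replicate 2, the median was 1.87, against 0.88 over all genes, and limma called 15 of the 46 genes higher in the N/D/S pair, where it called 17.1% of all genes higher. That fit has a single N/D library, which is assumed to vary as the N/D/S pair does, and it is the library with 24 of the 46 genes at 0. Among the 18 genes of the set with at least 1 TPM in every library, 4 had a fold change above 0 and 14 below, where 59.8% of the 7011 genes that met the same minimum were below, and the medians were -0.30 and -0.15.

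Groups that did not overlap were counted as a second description. None of the 46 genes was higher in both N/D/S libraries than in both N/D libraries, where 8.69% of all genes were. In the opposite direction 6 of 46 genes were lower in both N/D/S libraries, where 8.23% of all genes were, and these were Mcm2, Mcm4, Tyms, Nusap1, Cenpf and Top2a. For Mcm4 the nearest N/D and N/D/S values were 14.6 and 14.5 TPM. Without N/D replicate 1 the 2 counts were 0 and 42 of 46, as given with their background next.

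Against N/D replicate 2 alone, which had few tested genes at 0, the set lay mostly on one side. All 46 genes were lower in N/D/S replicate 1, where 43.7% of all genes tested were lower, and the median difference in log2(TPM + 1) was -0.79 for the set and 0.08 for all genes. In N/D/S replicate 2, 42 of 46 genes were lower, where 74.7% of all genes were lower, and the medians were -0.97 and -0.62. Both comparisons share N/D replicate 2, so they are not independent of each other, and with 1 library on the N/D side they compare libraries and not lines.

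**Figure D3:**
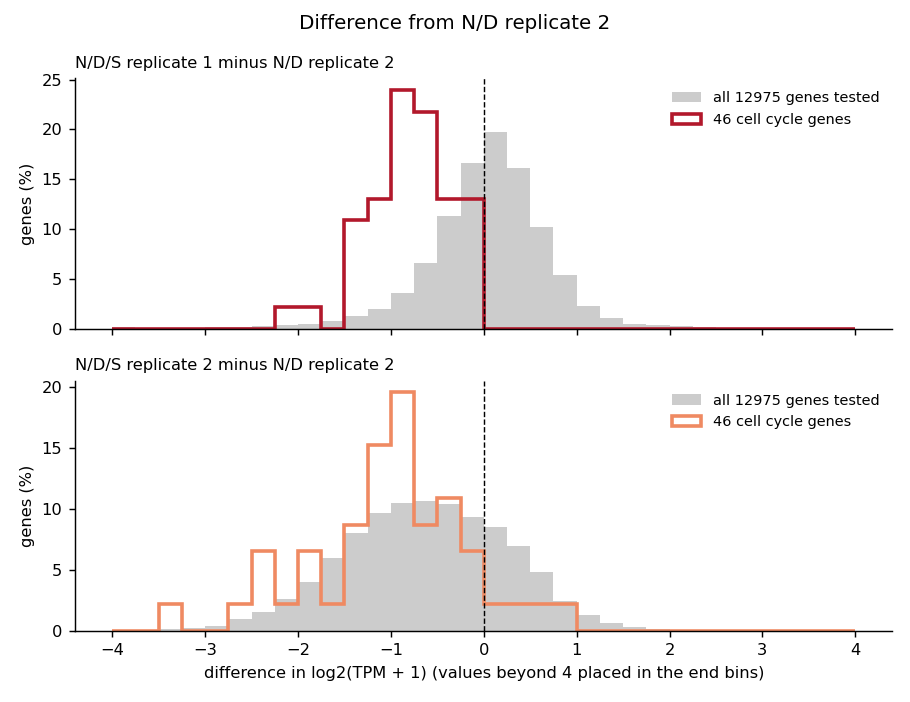
Difference in log2(TPM + 1) between each N/D/S library and N/D replicate 2, as the percentage of genes per bin of 0.25, for all 12975 genes tested (grey) and the 46 cell cycle genes (outline). For N/D/S replicate 1 all 46 genes lie left of 0 while the grey distribution is centred near 0. For N/D/S replicate 2 both medians lie left of 0, at -0.97 for the set and -0.62 for all genes, and both distributions reach right of 0.

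Counted over both N/D/S libraries, 42 of 46 genes were lower than in N/D replicate 2, where 31.9% of all genes tested were. The 42 comprised 14 of 15 S phase genes, 23 of 23 G2/M genes, 3 of 3 chromatin genes and 2 of 5 G1/S genes. The exceptions were Ccnd1, Ccne1, E2f1 and Mcm5. None of the 46 genes was higher in both N/D/S libraries, where 13.3% of all genes were. In TPM as deposited, a difference of at least 2-fold in both was found for 11 of 46 genes and for 2.51% of all genes. These were the cyclin Ccne2, the helicase subunit Mcm3, the mitotic entry genes Ccnb1 and Cdc25c, the kinetochore and spindle genes Bub1, Ndc80, Cenpe, Cenpf and Nusap1, and Mki67 and Top2a. Ccnb1 was 2.58-fold and 2.33-fold higher in N/D replicate 2 than in N/D/S replicate 1 and 2, and Top2a 2.21-fold and 6.21-fold.

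TPM values depend on the rest of the library, so the counts of lower genes were repeated after scaling. The count at 2-fold is given as deposited only and may depend on the scaling. With upper quartile scaling, 46 of 46 genes were still lower in N/D/S replicate 1 than in N/D replicate 2, where 53.5% of all genes were. In N/D/S replicate 2, 34 of 46 were lower, where 57.3% of all genes were. Both held for 34 of 46 genes (18 of 23 G2/M genes and 12 of 15 S phase genes), against 29.6% of all genes, and median-of-ratios scaling gave 34 of 46 against 27.5%. For N/D/S replicate 2 minus N/D replicate 2, the median over all genes was -0.62 as deposited, -0.18 after upper quartile scaling and -0.12 after median-of-ratios scaling, and that of the set was -0.97, -0.49 and -0.43. For N/D/S replicate 1 minus N/D replicate 2 the set's median was -0.85 and -0.81 after scaling.

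N/D replicate 2 was the highest of the 4 libraries for 39 of the 46 genes, where it was the highest for 25.3% of all genes tested, and for 31 of 46 after upper quartile scaling, where it was the highest for 21.9%. N/D replicate 1 was the lowest for 34 of 46 genes, where it was the lowest for 56.3% of all genes. Thus the N/D line held both extremes of the set, and the 2 N/D/S libraries lay closer together, with 27 genes higher and 19 lower in replicate 1 than in replicate 2 and a median difference of 0.12, against 0.70 over all genes. After upper quartile scaling that median was -0.45, with 14 higher and 32 lower, so the direction within the N/D/S line depended on the scaling.

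Replicate 1 was then compared with replicate 2 across both lines, in a fit with line and replicate number. Limma called 0 genes (0%), none of the 46 among them, with 134 genes at an unadjusted p of 0.05. Of the 46 genes 39 were below 0, that is, lower in replicate 1, where 59.8% of all genes were, and the median was -1.34, against -0.25. Within N/D the median of replicate 1 minus replicate 2 was -3.12 for the set and -1.19 for all genes. Within N/D/S it was 0.12 for the set and 0.70 for all genes, and -0.45 and 0.13 after upper quartile scaling, so the set lay below all genes in both lines. Cdk1 (log2 difference -3.36, SE 1.56, unadjusted p = 0.0646) and Cdc20 (-3.24, SE 1.51, unadjusted p = 0.0648) had the lowest p of the 13 index genes, each with an adjusted p of 1.00. The difference between the lines in this effect was not tested, since with an interaction term the fit has no residual degrees of freedom.

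Both replicate 1 libraries lay below both replicate 2 libraries for 15 of the 46 genes, where 14.7% of all genes tested did, and above them for none, where 14.8% did. The 15 included Cdk1, Ccnb1, Cdc20, Ube2c, Cenpa, Aurka and Hmgb2. After upper quartile scaling 27 of 46 genes were in this class, where 21.8% of all genes were. Without N/D replicate 1, only the N/D/S line has both replicates, and there 19 of 46 genes were lower in replicate 1, where 26.8% of all genes were, and 32 of 46 after upper quartile scaling, where 45.7% were. Marker sums of other cells were also lower in both replicate 1 libraries than in both replicate 2 libraries, for the pluripotency (3.94 and 0.247 TPM against 332 and 198 TPM), glial (4.04 and 5.31 TPM against 59.4 and 109 TPM), mesodermal or fibroblast, endodermal, and radial glia and progenitor lists (the last 649 and 562 TPM against 802 and 1400 TPM). Neuronal marker sums were higher in both replicate 1 libraries (7195 and 6151 TPM against 3801 and 4301 TPM). The part of these cells in the replicate difference was not tested.

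Zeros in N/D replicate 1 were frequent among the cell cycle genes. There 24 of 46 genes were at 0, where 26.1% of all genes tested were, and 4 more, Ccnd1, Ccna2, Ccnb1 and Ccnb2, were above 0 but under 1 TPM. Genes at 0 had lower levels elsewhere, with a median of 6.09 TPM in the other 3 libraries, against 34.1 TPM for the 18 genes at 1 TPM or more, while the median lengths of the longest transcript were 3550 and 3510 bases. Split by level elsewhere, the shares at 0 were 6 of 8 genes between 1 and 5 TPM (51.9% of all such genes), 13 of 19 between 5 and 20 TPM (33.2%), and 5 of 18 between 20 and 100 TPM (11.9%). Genes of the set at 0 there with levels over 20 TPM elsewhere were Rrm2, Cdk1, Cenpa, Cdc20 and Gins2. The set was not at 0 throughout, since Tyms, Pcna, Birc5, Nusap1, Ube2c and Hmgb2 each exceeded 30 TPM in that library.

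**Figure D4:**
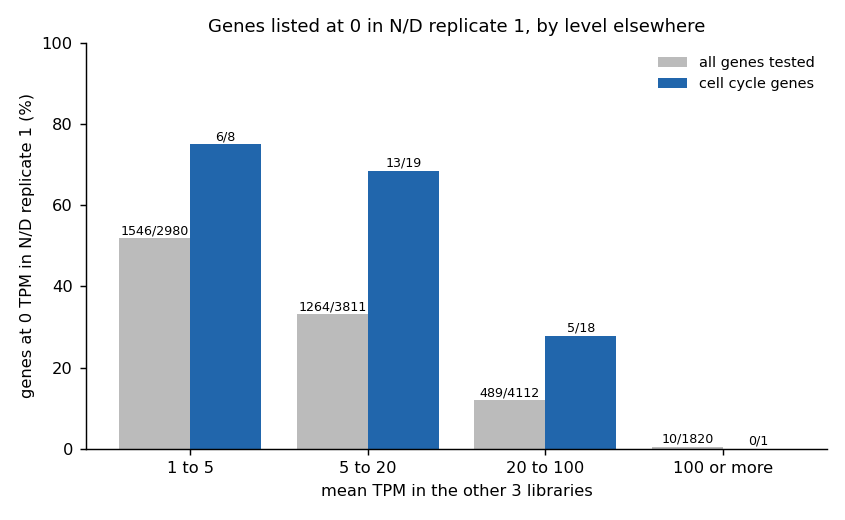
Percentage of genes listed at 0 TPM in N/D replicate 1, by their mean TPM in the other 3 libraries, for all genes tested and for the 46 cell cycle genes, with counts above each bar. In the 3 lower classes the share is higher in the set (6 of 8, 13 of 19 and 5 of 18) than among all genes (51.9%, 33.2% and 11.9%), and the class of 100 TPM or more holds 1 gene of the set, Hmgb2.

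Cell cycle genes outside the set also lay mostly below their level in N/D replicate 2. Of 32 other S phase genes tested, 21 were lower in both N/D/S libraries than in N/D replicate 2, and of 40 other G2/M genes 31 were, against the 31.9% of all genes. Limma called none of either list between the lines. Rfc2, a subunit of the clamp loader, stood at 117 and 198 TPM in the N/D/S pair and at 2.42 and 150.0 TPM in the N/D pair, and the histone chaperone Nasp at 72.0 and 33.9 TPM and at 37.2 and 86.8 TPM. Some of the most abundant genes of these lists were instead highest in N/D replicate 1, namely Slbp (111.0 TPM), Tubb4b (269 TPM), Cks1b (144.4 TPM) and Pttg1 (securin), at 96.3 and 136.6 TPM in the N/D/S pair and at 193.0 and 147.8 TPM in the N/D pair.

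Genes that hold cells out of the cycle were closer to the background. Of 19 tested genes of cell cycle exit, CDK inhibition and the DREAM complex, 8 were lower in both N/D/S libraries than in N/D replicate 2. Of all genes tested, 31.9% were lower in both. Higher in both were 2 of the 19, where 13.3% of all genes were. Cdkn1c (p57), a CDK inhibitor of differentiating cells, stood at 579 and 243 TPM in the N/D/S pair and at 425 and 259 TPM in the N/D pair, and Cdkn1a (p21) at 96.7 and 140.8 TPM and at 130.9 and 139.5 TPM. Among 11 other cyclins and kinases tested, 4 were lower in both, against the same 31.9%. Cdk4, the partner of the D-type cyclins, was abundant throughout, at 950.0 and 921 TPM in the N/D/S pair and at 1177 and 782 TPM in the N/D pair. Limma called none of these.

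**Figure D5:**
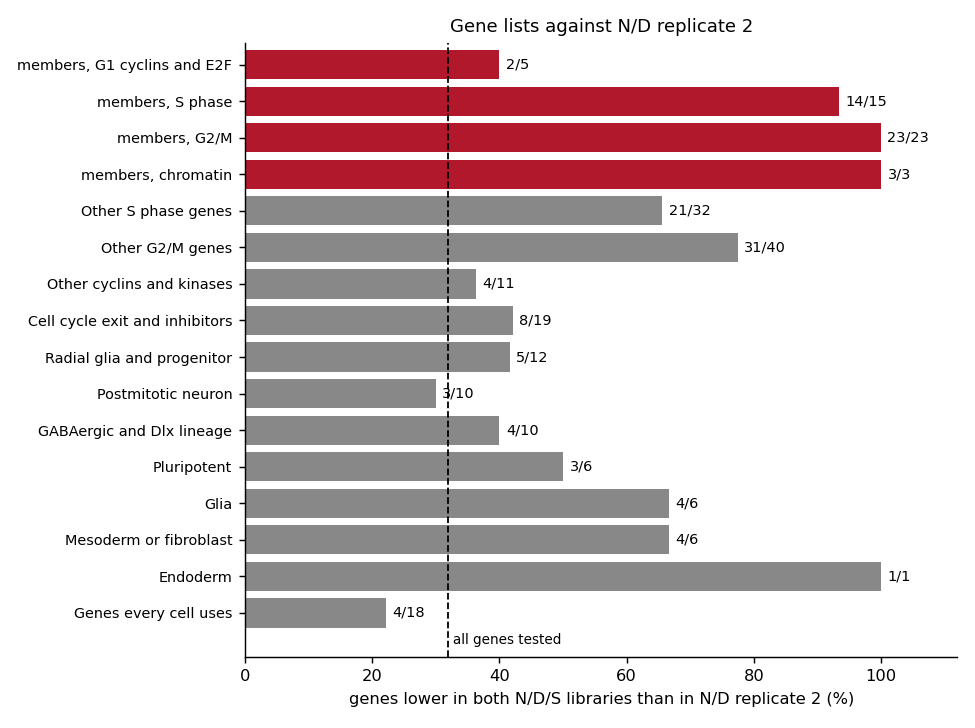
Percentage of tested genes that were lower in both N/D/S libraries than in N/D replicate 2, for the cell cycle genes by phase (red) and for other gene lists (grey), with counts beside each bar and a dashed line at the 31.9% of all genes tested. The S phase and G2/M bars (14 of 15 and 23 of 23) and those of the other S phase and G2/M genes (21 of 32 and 31 of 40) lie right of the line, as do those of exit and inhibitor (8 of 19), progenitor (5 of 12), GABAergic (4 of 10), glial (4 of 6), mesodermal (4 of 6), pluripotency (3 of 6) and endodermal (1 of 1) genes, while genes that every cell uses (4 of 18) lie left of it.

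Markers of other cells also differed between these libraries. Radial glia and progenitor markers summed to 649 and 802 TPM in the N/D/S pair and to 562 and 1400 TPM in the N/D pair, and Fabp7, a fatty acid binding protein of radial glia, made up most of the highest sum (179 and 506 TPM in the N/D/S pair, 134 and 906 TPM in the N/D pair). Of the 12 progenitor markers 5 were lower in both N/D/S libraries than in N/D replicate 2. Neuronal markers summed to 7195 and 3801 TPM in the N/D/S pair and to 6151 and 4301 TPM in the N/D pair, and 3 of 10 were lower in both, and GABAergic and Dlx lineage markers summed to 1361 and 512 TPM and to 568 and 1189 TPM, with 4 of 10 lower in both.

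Pluripotency markers, which a residual stem cell would carry, summed to 3.94 and 332 TPM in the N/D/S pair and to 0.247 and 198 TPM in the N/D pair. Most of that was Dppa5a, at 3.03 and 265.5 TPM in the N/D/S pair and at 0 and 164.2 TPM in the N/D pair, and Pou5f1 (Oct4) stood at 0.0881 and 19.5 TPM and at 0 and 7.55 TPM. In N/D replicate 1, 7 of the 8 were at 0. Glial markers summed to 4.04 and 59.4 TPM in the N/D/S pair and to 5.31 and 109 TPM in the N/D pair, mesodermal or fibroblast markers to 8.60 and 29.2 TPM and to 0.0895 and 47.9 TPM, and endodermal markers to 2.99 and 7.03 TPM and to 0 and 14.9 TPM. Among the tested markers, 3 of 6 pluripotency, 4 of 6 glial, 4 of 6 mesodermal or fibroblast and 1 of 1 endodermal markers were lower in both N/D/S libraries than in N/D replicate 2, against 31.9% of all genes tested, so these lists too exceeded the background. The part of these cells in the level of the cell cycle genes was not tested.

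Transcript length moved with the comparisons as well. For N/D/S replicate 2 minus N/D replicate 2 the median difference over all genes was -0.32 for genes whose longest transcript was under the set's median length and -0.94 for longer ones. For the set the medians were -0.90 and -0.99. In the set 20 of 23 shorter genes were lower in N/D/S replicate 2, where 64.9% of all shorter genes were. Of its longer genes 22 of 23 were lower, where 85.8% of all longer genes were. For N/D/S replicate 1 minus N/D replicate 2 the medians were -0.67 and -0.85 for the set and -0.01 and 0.19 for all genes. All 23 genes of the set in each class were lower, where 50.9% of all shorter and 35.6% of all longer genes were.

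Across the 46 genes, log2(TPM + 1) in N/D/S replicate 1 correlated with that in N/D replicate 2 at a Pearson r of 0.950, with an r of 0.883 to N/D/S replicate 2 and of 0.521 to N/D replicate 1. Over all 12975 genes tested the values were 0.947, 0.876 and 0.757. These correlations run across genes within libraries and genes are not independent replicates. The order of the genes by level was thus alike in the 2 libraries that correlated most, while the level of all 46 was lower in N/D/S replicate 1.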

How the data were processed

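Polyadenylated RNA of sorted cells was sequenced as paired reads on a NovaSeq. The authors pseudoaligned reads with kallisto 0.44.0 (GRCm38, per the submitters' processing notes) and deposited TPM values per gene symbol, 1 table per library. The transcriptome release and how transcripts were summed to genes are not given in the sources used here. Read counts were not used here. Symbols that a spreadsheet had turned into dates, 26 per library, were left out. Genes that reached 1 TPM in 2 or more of the 4 libraries were tested on log2(TPM + 1) with limma 3.58.1 (R 4.3.3) and Benjamini-Hochberg adjustment over all genes tested. A fold change on this scale understates the change of low genes. Limma stood in for sleuth, the authors' test. Fold changes, SE and p are given for 13 index genes (Mki67, Top2a, Cdk1, Ccna2, Ccnb1, Ccnd1, Ccnd2, Ccne1, Mcm2, Pcna, Rrm2, Cdc20 and E2f1) and the gene of lowest p, and up to 4 genes of highest mean TPM are named from each other list. The 46 genes and all lists were chosen with earlier results of these data known. Polr2a falls outside this rule and was named after its values were seen.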

Additional observations from a re-analysis of the deposited data

How the results depend on the processing

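Between the lines, none of the 46 genes was called under another pseudocount, filter, scaling or prior variance or with the replicate block. Over the fits that leave out a library, 0 to 15 of the 46 and 0 to 2373 of all genes were called, with calls only without N/D replicate 2. A prior variance fitted as a trend called 6 genes between the lines and 19 between the replicates, and a minimum of 1 TPM in every library called 4 between the replicates, none of the 46 among them. Over the fits without 1 library, the median of the set ran from -0.79 to 1.87 between the lines and from -3.12 to 0.12 between the replicates. The log2 ratio of summed TPM was -0.14, and ran from -0.78 to 1.05. Log2 fold changes ran from -1.39 to 1.04 for Mki67, -0.76 to 5.18 for Cdk1, -0.75 to 3.67 for Ccna2, -1.26 to 3.80 for Ccnb1, -0.008 to 3.40 for Ccnd1, -0.95 to 2.81 for Ccnd2, -0.75 to 0.32 for Ccne1, -0.60 to 0.20 for Pcna, -1.36 to 4.96 for Rrm2, -0.47 to 5.09 for Cdc20 and -1.12 to 0.33 for E2f1. Cdk1, Ccna2, Ccnb1, Ccnd1, Rrm2 and Cdc20 passed an adjusted p of 0.05 without N/D replicate 2 and were below 0 without N/D replicate 1. With a pseudocount of 0.1, Mki67 changed sign, to 0.58, Cdk1 was at 3.84, Cdc20 at 3.94, Rrm2 at 3.43, Ccna2 at 2.82 and Ccnd1 at 3.24, and the set's median was 1.29 between the lines and -2.40 between the replicates. Top2a, Mcm2 and Nusap1 stayed below 0 in every fit without 1 library, but their size moved. Top2a ran from -2.14 to -0.79, Mcm2 from -0.71 to -0.14 and Nusap1 from -2.90 to -1.67.

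The comparisons of each N/D/S library with N/D replicate 2 alone, and with N/D replicate 1 in its place, were added after the data were seen. With N/D replicate 1, N/D/S replicate 1 was the lower for 9 of 46 genes, where it was the lower for 27% of all genes. N/D/S replicate 2 was the lower for 10 of 46, where it was the lower for 37.2% of all genes, and both were lower for 8 of 46. With the replicate number as a block (paired fit), limma called 0 genes, 9 had an unadjusted p of 0.05 or less, and the set's median stayed at 0.49. Deviations from the line means correlated at 0.02 between libraries with the same number, so the numbers were not taken as pairs. No source used here says whether libraries with the same number shared a culture or sort. Depth is unknown, and values near 0 in N/D replicate 1 cannot be told from failed estimates.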

Other observations

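Several cell cycle genes outside the set of 46 were far higher in N/D replicate 1 than in the other 3 libraries, in the library that listed 24 of the 46 at 0. They and the Hes genes were picked after their values were seen. Gmnn, whose protein geminin blocks relicensing of origins, stood at 93.1 TPM there and at 10.8 to 28.5 TPM elsewhere. Kif23, a kinesin of cytokinesis, stood at 91.1 TPM against 1.66 to 8.94 TPM, and the nuclease gene Exo1 at 71.7 TPM against 6.58 to 14.1 TPM. Espl1, which encodes separase, stood at 49.5 TPM against 2.25 to 3.34 TPM. The radial glia factor Hes1 was also highest in that library, at 52.3 TPM against 11.1 to 11.7 TPM, while Hes5 was listed at 0 there and stood at 22.6 to 69.2 TPM elsewhere. No other library of the N/D line shares these values, so they have no replicate check.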
